A study of Mus musculus with 2 samples.

Results

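Cytoplasmic ribosomal protein genes were followed through the nuclei of mouse vagus nerve ganglia. Members were the rows of the gene list whose symbol is *Rpl* or *Rps* with a number and an optional a, x or l, together with *Rplp0*, *Rplp1*, *Rplp2* and *Rpsa*, and pseudogenes with -ps in the symbol were left out. This symbol rule took 80 of 32286 rows, of which 49 encode proteins of the large and 31 of the small subunit. The members held 562268 of 44965030 UMIs, or 1.25%, where a UMI (unique molecular identifier) stands for a captured RNA molecule.

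Each ribosomal protein sits in the mature ribosome in a defined place, and cells make the proteins of both subunits in matched amounts. Their mRNAs are made by RNA polymerase II, are short, are exported to the cytoplasm and are among the most abundant mRNAs of most cells. Many of them start with a C followed by a run of pyrimidines, the terminal oligopyrimidine (TOP) motif, through which mTOR signalling sets their translation. In RNA of single nuclei, which is mostly unspliced and nuclear, such mRNAs can come from the nucleus itself, from cytoplasm that stays attached to it, or from RNA free in the droplet, and the counts used here cannot tell these sources apart.

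The ganglia came from C57BL/6J mice of the genotype Rosa26-floxed-STOP-Cas9-eGFP, 8 to 9 weeks old as purchased and fed a standard chow diet, in which Cre switches on Cas9 and eGFP. All animals, female and male, had received AAVrg-Cre, a retrograde virus carrying Cre, into the liver 4 weeks before collection, so that the series holds no mice without virus. The female library was 1 pool of 14 ganglia from 7 mice, with 3791 nuclei and 17435300 UMIs (median 2381 per nucleus), and the male library 1 pool of 16 ganglia from 8 mice, with 4923 nuclei and 27529730 UMIs (median 2658). With 1 library per sex there were no replicates and no test of any comparison was made, and the sexes cannot be told apart from their libraries. Intervals below are exact 95% intervals that cover counting error only. Nuclei were given a library by their barcode, and 8 barcode sequences occurred in both libraries. *Uty*, a Y-linked gene, had 1 UMI in female and 4677 in male nuclei, and *Xist* had 13424 and 7. Nuclei were grouped into 20 clusters without the members, and 19 clusters took a name from marker lists. The neuron list of 14 genes, which includes *Scn10a* and *P2rx3*, held 65.7 UMIs per 10000 in neuron-like nuclei. It held 22.1 to 49.9 in the other named classes, so that UMIs of these genes were present in each class. Whether those UMIs came from neurons was not tested.

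Several members carried the pyrimidine run at an annotated start. At least 1 coding transcript of 22 of 80 members (27.5%) began with a C within a run of 5 or more pyrimidines, against 1112 of 21630 protein-coding genes (5.14%), in the GENCODE vM21 annotation of GRCm38, the build also called mm10. Annotated starts are not measured here, and a transcript that begins a few bases early hides the run. The first 30 bases of the transcript with the longest run are shown for 5 members. This motif is what the group is best known to share. The start of 1 transcript of *Rpl3l*, a muscle paralog of *Rpl3* with a different pattern in these nuclei, is shown beside them. None of its 3 coding transcripts had a run, so this transcript was picked by its name. Except for *Rpl32*, the transcripts shown begin inside their annotated genes. That of *Rpl3l* begins at chr17:24732685 in a gene at chr17:24727820-24736143, so it need not be the 5 prime end of the gene. The leading pyrimidine run is in capitals.
Rps24: CTCTTTTCCTCCTCTCCagctccggcgccg
Rpl32: CTTCCTTCTTCCTCggcgctgcctacgagg
Rps2: CTTCTTCTTCTTCgggagaacacgtgagtc
Rps25: CCTTTTTTTCCgacatcttagcgaggctgc
Rps3: CCTTTCCTTTCagcggcgcgcggctgcaag
Rpl3l: agtgccccaaatgtcctgaaaggcttagag
These stretches lie at chr14:24490718-24490747 on the plus strand (*Rps24*), chr6:115808718-115808747 on the minus strand (*Rpl32*), chr17:24720110-24720139 on the plus strand (*Rps2*), chr9:44407695-44407724 on the plus strand (*Rps25*), chr7:99483622-99483651 on the minus strand (*Rps3*) and chr17:24732685-24732714 on the plus strand (*Rpl3l*).

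The promoters of the members also held a shared word. In the RefSeq promoter table for GRCm38.p6, which spans 250 bases before to 50 after each start and held 60 of the 80 members, the letters CCGGAA, the core bound by ETS-family factors, occurred on either strand in a promoter of 33 of 60 members (55%) and of 4503 of 27025 genes in all (16.7%). The letters TATAAA occurred in 6 of 60 (10%) and in 15.7% of all. Windows of 30 bases around the match are shown for *Rpl41*, *Rplp2* and *Rpsa*, members whose roles are described below, with the matched letters in capitals.
Rpl41: ctagtaaggcagCCGGAAgtcgctgtctcg
Rplp2: gaaatgtcttccTTCCGGtgcacccttttc
Rpsa: gccagaggctttTTCCGGagcggaagttct
They lie at chr10:128549207-128549236 on the minus strand, 56 bases before the RefSeq start, at chr7:141447532-141447561 on the plus strand, 107 bases before it, and at chr9:120127685-120127714 on the plus strand, 69 bases before it. In the GENCODE annotation each match lies after the start of its gene (chr10:128549305, chr7:141447370 and chr9:120127689) and so inside the gene. Of the other members named for their roles, *Rplp0*, *Rps19*, *Rpl5* and *Rpl11* had no match before the start in the promoter searched. *Rplp1* and *Rps27a* had no promoter listed. A match is a run of letters and not a measured binding site.

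Among the members, UMIs were spread widely. The large subunit held 334520 UMIs (59.5% of those of the members) and the small subunit 227748 (40.5%). The 5 members with the most UMIs held 13.6% and the 10 with the most held 23.3%. *Rplp1*, an acidic protein of the ribosomal stalk that recruits elongation factors, came first with 21702 UMIs, 7271 female and 14431 male. It lies at chr9:61913284-61914542 on the minus strand, a gene of 1.26 kb. A *Rplp1* UMI was found in 73.0% of female and 85.0% of male nuclei. Every cell needs ribosomes, so no class could serve to measure the level that free RNA alone gives.

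The next members in number of UMIs for the large subunit were *Rpl23* (14885), *Rpl13* (12219), *Rplp2* (11484) and *Rpl9* (10940). Members of the small subunit with many UMIs included *Rps14* (12533), *Rps24* (11131), *Rps20* (10191) and *Rps10* (9824). These are counts of tags. Per kb of gene span, introns included, *Rplp1* was again first, with 17238 UMIs, followed by *Rps21* (8628) and *Rpl41* (8446). This order favours short genes and does not give a level of the mRNA. Of the 80 members 78 had at least 20 UMIs and 77 at least 100, and among the latter *Rpl35* (1808) and *Rps27l* (2275) had the fewest.

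**Figure D1:**
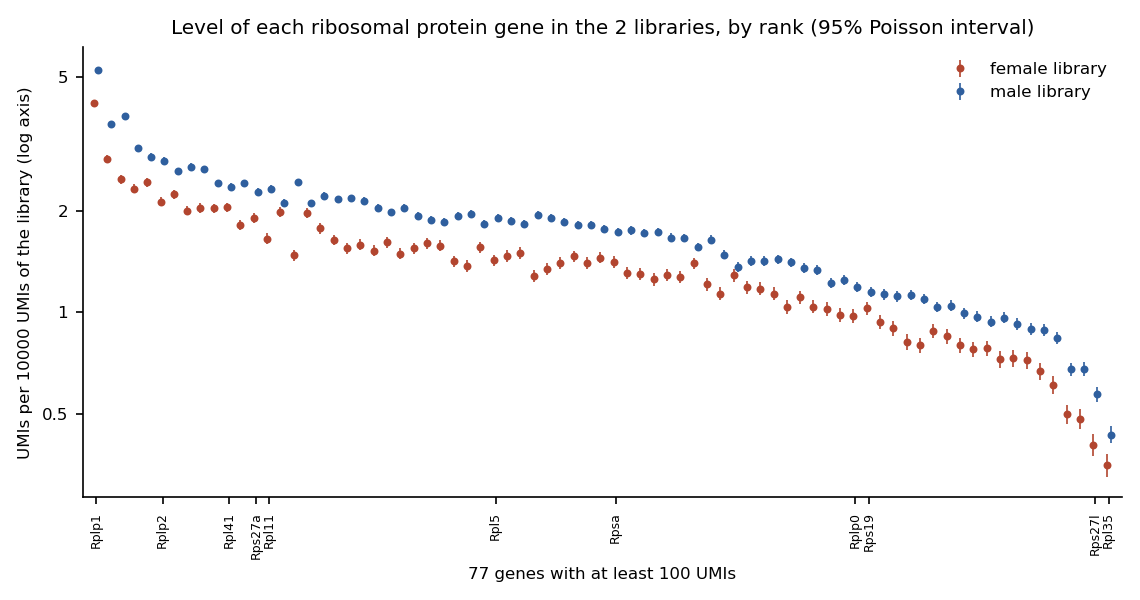
Level of each of the 77 ribosomal protein genes with at least 100 UMIs (UMIs per 10000 UMIs of the library, log axis) in the female and the male library, ordered by their UMIs in both, with exact 95% Poisson intervals as bars and some of the genes named on the axis. *Rplp1* is first with 4.17 (female) and 5.24 (male), *Rpl35* is last with 0.352 and 0.434, and the male point lies above the female point for each of the 77 genes.

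The members with l at the end of the symbol are paralogs, of which *Rpl3l*, *Rpl10l* and *Rpl39l* are known from muscle or testis. *Rpl10l* had 0 UMIs, which allows up to 0.0791% of female and 0.0609% of male nuclei with a UMI. *Rpl39l* had 5 UMIs, 2 female and 3 male. *Rpl3l* had 38 UMIs, 30 in 21 female nuclei and 8 in 7 male nuclei. Of the female *Rpl3l* UMIs 17 lay in 8 of 122 adipocyte-like nuclei, with up to 5 in a nucleus, in a cluster where *Ttn*, the gene of a giant muscle protein, was the gene of highest fold. Of the 45 male adipocyte-like nuclei none held a *Rpl3l* UMI, which allows up to 6.67% of such nuclei with a UMI and sets no limit on nuclei that express the gene below detection. *Rps27l*, with 2275 UMIs, was the only member of this kind at a level near that of the other members.

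The share of UMIs in the members differed by class. Endothelial cell-like nuclei had the highest share, 2.19% (2.17 to 2.22%), followed by Schwann cell-like nuclei with 2.14% (2.13 to 2.16%). Satellite glia-like nuclei had 1.79% (1.77 to 1.80%) and macrophage-like nuclei 1.77% (1.74 to 1.81%). The intervals of these last classes overlap, so that their order cannot be read. Fibroblast-like nuclei had 1.61%, barrier fibroblast-like nuclei, of the sheaths of nerve and brain, 1.35%, adipocyte-like nuclei 1.18% and cerebellar granule cell-like nuclei 1.10%. Neuron-like nuclei were lowest of the named classes with 0.965% (0.961 to 0.969%), and 334 unnamed nuclei led by pituitary genes had 0.926%. Clusters of the same class also differed, over both libraries. Satellite glia-like clusters 4 and 10 had 2.23% and 1.23%, and Schwann cell-like clusters 1, 5 and 14 had 1.89%, 2.61% and 2.08%. Fibroblast-like clusters 3, 9, 13 and 18 had 1.36%, 2.35%, 1.18% and 1.94%. The interval of a class does not cover this spread. Part of the order of the classes changed within libraries, which mix differently in each class. Schwann cell-like nuclei were above endothelial cell-like nuclei in the female library (1.95% and 1.71%) and below them in the male library (2.32% and 2.66%). Macrophage-like nuclei were above satellite glia-like nuclei in female nuclei only (1.55% and 1.28%, against 1.97% and 2.01% in male nuclei). Cerebellar granule cell-like nuclei were above adipocyte-like nuclei in both libraries, with 1.07% and 1.01% (female) and 1.90% and 1.69% (male), though below them when pooled. Unnamed nuclei were likewise above neuron-like nuclei in both libraries, with 0.826% and 0.779% (female) and 1.26% and 1.05% (male). Median depth ran the other way at the low end, with 7300 UMIs in neuron-like nuclei and 1802 to 2993 in the other named classes.

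**Figure D2:**
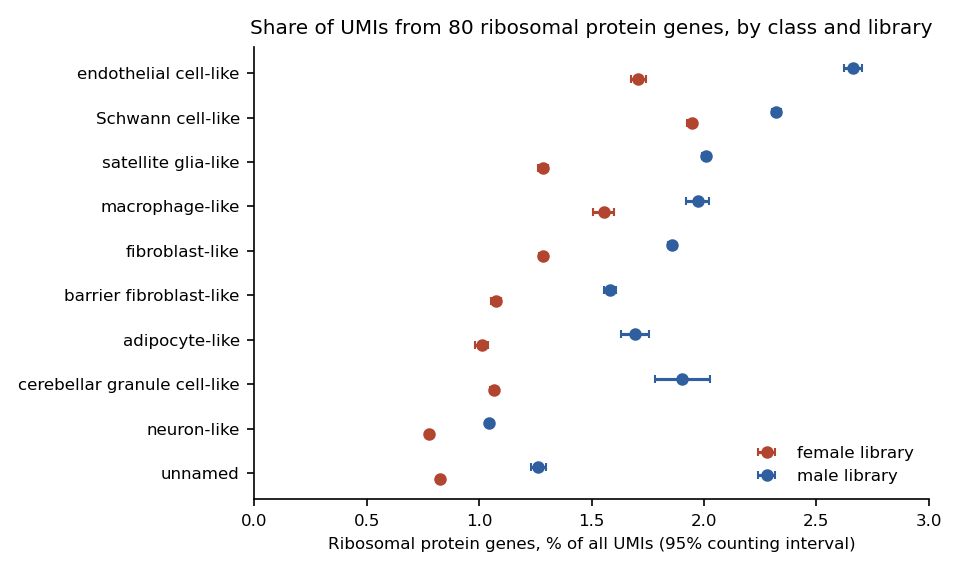
Share of UMIs in the 80 cytoplasmic ribosomal protein genes (percent of all UMIs, x axis from 0) for each class of nuclei. Points are the pooled share of a class in the female or the male library and bars the exact 95% counting interval; the male point lies to the right of the female point in each of the 9 named classes and in the unnamed nuclei, and the neuron-like class has the lowest share in either library, 0.779% and 1.05%.

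The male library had the higher share. The members took 1.07% of all female UMIs (1.064 to 1.073%) and 1.37% of all male UMIs (1.361 to 1.370%), a log2 ratio of 0.35 (0.346 to 0.362) or 1.28-fold. The large subunit differed by 0.38 and the small subunit by 0.32 on the log2 scale. In each of the 9 named classes the male share lay above the female share. Schwann cell-like nuclei had 1.95% and 2.32% (female and male), endothelial cell-like 1.71% and 2.66%, satellite glia-like 1.28% and 2.01%, and fibroblast-like 1.28% and 1.86%. Neuron-like nuclei had 0.779% and 1.05%. The log2 ratio was smallest in Schwann cell-like (0.25) and macrophage-like (0.34) nuclei and largest in adipocyte-like (0.74) and cerebellar granule cell-like nuclei (0.83), the latter with 23 male nuclei.

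Several classes drew on different clusters in the libraries. Cluster 1 held 523 female and 184 male Schwann cell-like nuclei and cluster 5 held 21 and 516. Cluster 14, with 271 female and 70 male nuclei, took the same name by a small margin. Its mean log2 fold was 0.69 for the Schwann cell and 0.67 for the satellite glia list, so that this name is uncertain. The fibroblast-like name of cluster 13, with 166 female and 214 male nuclei, rests on 3 markers and a mean log2 fold of 0.43. It is uncertain as well. Neuron-like clusters 2 and 17 had 7 and 5 markers of the neuron list and a mean log2 fold of 0.50 and 0.37. Of the fibroblast-like nuclei, cluster 3 held 519 female and 85 male nuclei, whereas cluster 9 held 33 and 434 and cluster 18 held 17 and 256. Of the satellite glia-like nuclei, cluster 10 held 234 female and 204 male nuclei and cluster 4 held 57 and 545. Within single clusters the male share was the higher in 18 of 20. In clusters 1, 3, 9 and 18 the log2 ratio was 0.00, -0.01, 0.06 and -0.10, and the interval included 0. The median over the 20 clusters was 0.29, whereas the mean of the log2 ratios within classes, each class counting the same, was 0.55. The largest ratios within a cluster were 0.83 in cluster 11 (cerebellar granule cell-like), 0.74 in cluster 20 (adipocyte-like) and 0.64 in cluster 12 (endothelial cell-like).

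By depth, the male share was the higher in each of 5 bins of UMIs per nucleus. In nuclei of up to 2000 UMIs the shares were 1.84% (female) and 2.36% (male), and in nuclei of more than 16000 UMIs 0.703% and 0.981%. The log2 ratio in the bins, from shallow to deep, was 0.36, 0.53, 0.56, 0.19 and 0.48. Of 32 combinations of class and depth with at least 20000 UMIs in each library the male share was the higher in 30. The log2 ratio ran from -0.29 to 1.43 with a median of 0.48, and 1 combination had its interval wholly below 0. The neuron list moved with this comparison in the other classes too, with 27.3 UMIs per 10000 in female and 45.6 in male Schwann cell-like nuclei, 21.8 and 45.8 in fibroblast-like nuclei and 24.1 and 45.7 in endothelial cell-like nuclei. Its part in the difference in ribosomal protein genes was not tested.

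Gene by gene, nearly the whole group leaned to the male library by a small amount. Of 78 members with at least 20 UMIs 77 were higher in the male library, against 45.6% of all genes tested, with a median log2 ratio of 0.34 where that of all genes was -0.05. Only 3 members reached 1.5-fold, against 9.18% of all genes. *Rpl27* had 1.48 UMIs per 10000 in female and 2.43 in male nuclei, a log2 ratio of 0.72 (0.65 to 0.78). *Rpl23* had 2.48 and 3.83, a log2 ratio of 0.63 (0.58 to 0.68), and *Rpl15* had 1.28 and 1.94, a log2 ratio of 0.60 (0.53 to 0.67). All of these are proteins of the large subunit, as are the next in order, *Rpl23a* (0.51) and *Rpl14* (0.50).

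At the other end *Rpl17* (0.08), *Rps12* (0.09), *Rps21* (0.10), *Rps19* (0.16) and *Rps16* (0.16) were nearly even between the libraries. *Rps12* had 1.98 UMIs per 10000 in female and 2.11 in male nuclei. *Rpl3l* was the only member lower in the male library and the only one past 1.5-fold lower, against 13.2% of all genes, with a log2 ratio of -2.50 (-3.90 to -1.41) that rests on 38 UMIs. The X-linked members, picked for their chromosome, did not stand apart, with log2 ratios of 0.41 for *Rps4x*, 0.30 for *Rpl10*, 0.46 for *Rpl36a* and 0.34 for *Rpl39*.

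**Figure D3:**
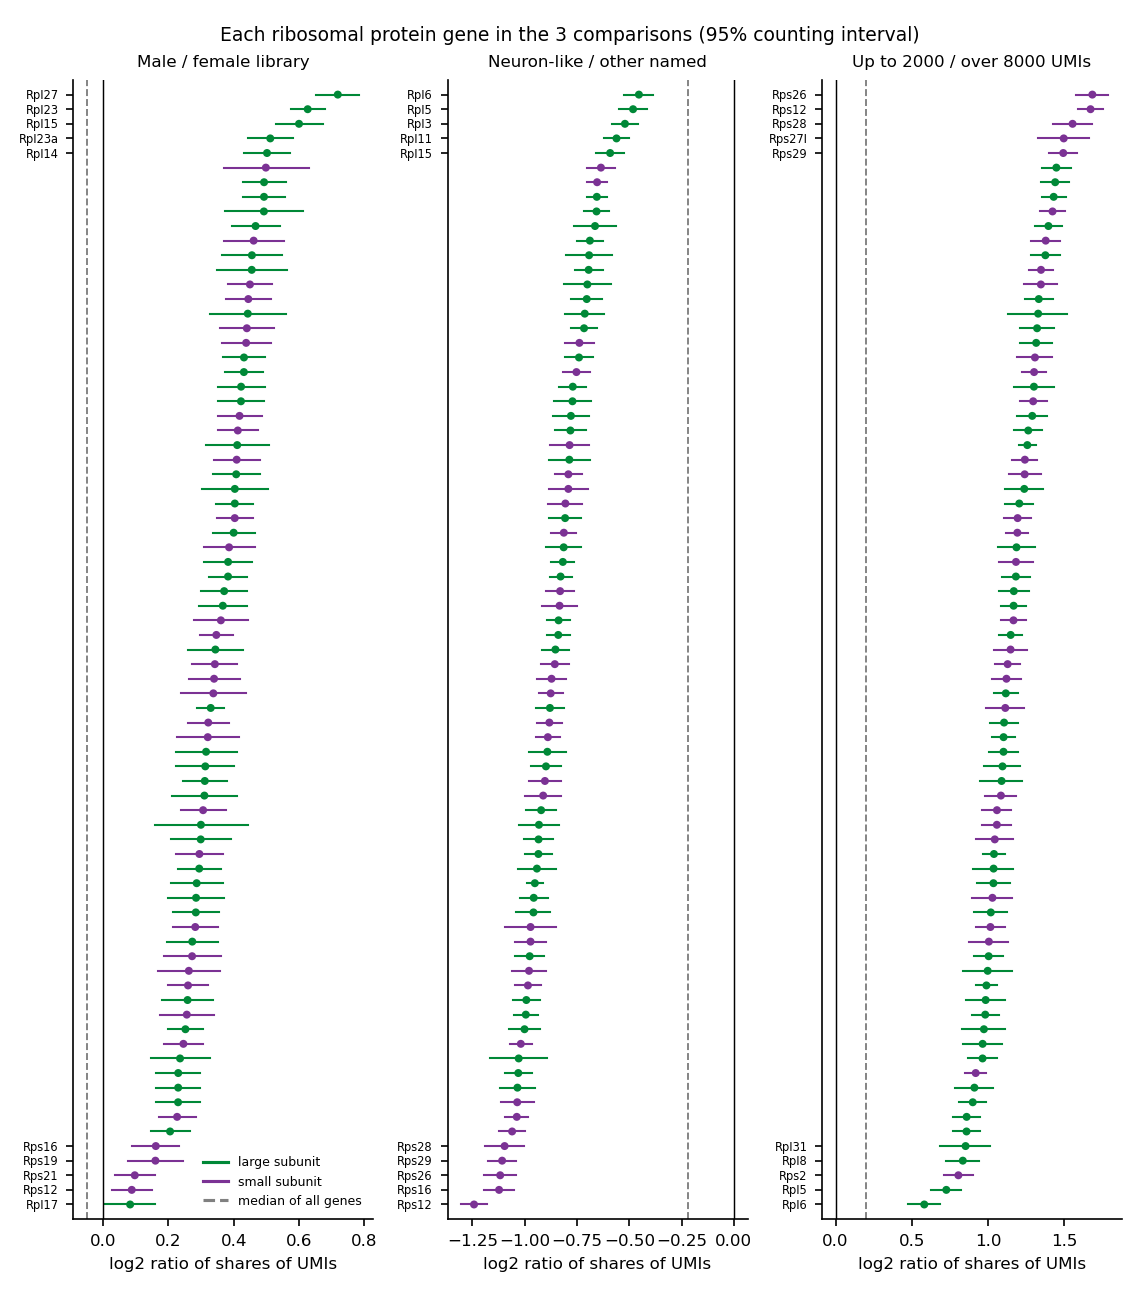
Log2 ratio of the share of UMIs for each of the 77 ribosomal protein genes with at least 100 UMIs on both sides, in the 3 comparisons (male over female library, neuron-like over other named nuclei, nuclei of up to 2000 over nuclei of more than 8000 UMIs). Points are genes in order of their ratio, with the 5 highest and the 5 lowest named, colours mark the subunit, bars are exact 95% counting intervals and the dashed line is the median of all genes tested, at -0.05, -0.22 and 0.20; each of the 77 genes lies above 0 in the panels on the left and right and below 0 in the middle.

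Depth changed these counts. In nuclei of 2000 to 4000 UMIs alone, 77 of 77 members were higher in the male library (46% of all genes) and 24 of 77 were past 1.5-fold (14%), with a median of 0.54. Within classes the number past 1.5-fold was 1 of 77 in Schwann cell-like nuclei, where 12% of all genes were, and 6 of 77 in neuron-like nuclei (8.18%). It was 20 of 77 in macrophage-like (20.5%), 28 of 77 in fibroblast-like (16.3%) and 31 of 77 in barrier fibroblast-like nuclei (18.2%). It was 48 of 77 in satellite glia-like (17.9%), 49 of 77 in endothelial cell-like (20.6%), 49 of 77 in adipocyte-like (21.3%) and 53 of 77 in cerebellar granule cell-like nuclei (33.1%). In Schwann cell-like nuclei the count thus lay below the share of all genes. In neuron-like nuclei it was near that share, and in macrophage-like nuclei only a little above it. The Schwann cell-like, fibroblast-like and satellite glia-like classes drew on different clusters in the libraries, as given above. Differences between clusters thus enter their counts, and the part of this mix was not tested.

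*Rplp1* shows the pattern of a single member. Its level was 2.83 UMIs per 10000 in female and 3.90 in male neuron-like nuclei, 7.96 and 9.37 in Schwann cell-like, 6.23 and 9.63 in endothelial cell-like, 4.62 and 8.02 in satellite glia-like and 5.58 and 7.21 in fibroblast-like nuclei. In macrophage-like nuclei it was 6.78 in both libraries. *Rpl27*, the member with the largest ratio, had 1.20 and 1.88 in neuron-like and 1.84 and 4.40 in endothelial cell-like nuclei. *Rps12*, with one of the smallest, had 1.23 and 1.41 in neuron-like and 3.87 and 4.02 in Schwann cell-like nuclei.

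Neuron-like nuclei had a lower share of ribosomal protein RNA than the other named nuclei. The share was 0.965% in 2251 neuron-like and 1.74% in 6129 other named nuclei, a log2 ratio of -0.85 (-0.856 to -0.840). It was -0.85 among female and -0.96 among male nuclei. Of 78 members 78 were lower in neuron-like nuclei, against 61.1% of all genes tested, and 74 were past 1.5-fold lower, against 31%. The median was -0.85 over the members and -0.22 over all genes. In the female library 71 of 78 members passed 1.5-fold lower (34.1% of all genes) and in the male library 77 of 77 (29.9%).

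The members furthest from the median were of opposite subunits. *Rps12* had 1.36 UMIs per 10000 in neuron-like and 3.22 in other nuclei, a log2 ratio of -1.24, with -1.21 among female and -1.32 among male nuclei. *Rps16* (-1.12), *Rps26* (-1.12), *Rps29* (-1.11) and *Rps28* (-1.10) came next, all proteins of the small subunit. *Rpl6* differed least, with 1.38 and 1.89 and a log2 ratio of -0.45, followed by *Rpl5* (-0.48), *Rpl3* (-0.52), *Rpl11* (-0.56) and *Rpl15* (-0.59), all of the large subunit.

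At matched depth this difference was small up to 8000 UMIs and large in deeper nuclei. In nuclei of up to 2000 UMIs the share was 2.05% in neuron-like and 2.13% in other named nuclei, a log2 ratio of -0.06. In nuclei of 2000 to 4000 UMIs it was 1.66% and 1.62%, a log2 ratio of 0.034. From 4000 to 8000 UMIs it was 1.28% and 1.39%, from 8000 to 16000 UMIs 0.933% and 1.80%, and above 16000 UMIs 0.838% and 2.23%, a log2 ratio of -1.41. Between 2000 and 4000 UMIs 46 members were higher and 31 lower in neuron-like nuclei, where 40.8% and 59.2% of all genes were, and 0 of 77 passed 1.5-fold lower (32.5%), with a median of 0.04. The other named nuclei above 8000 UMIs were few, 135 in the first and 24 in the second of the deep bins, against 516 and 547 neuron-like nuclei. They also differed by class. From 8000 to 16000 UMIs Schwann cell-like nuclei had 2.78%, endothelial cell-like nuclei 2.52%, satellite glia-like nuclei 1.74% and barrier fibroblast-like nuclei 1.15%, but the share was 0.862% in fibroblast-like, 0.807% in adipocyte-like and 0.772% in cerebellar granule cell-like nuclei, the last 3 below neuron-like nuclei of the same bin.

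The neuron-like clusters differed among themselves. Clusters 2 and 17, with medians of 14434 and 13846 UMIs per nucleus, had shares of 0.552% and 0.545% among female and 0.646% and 0.705% among male nuclei. Cluster 8, with a median of 2045 UMIs, had 1.87% and 2.15%. Clusters 7 and 16, with medians of 7570 and 3581.5 UMIs, lay between, at 1.36% and 1.21% in the female and 1.59% and 1.48% in the male library.

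**Figure D4:**
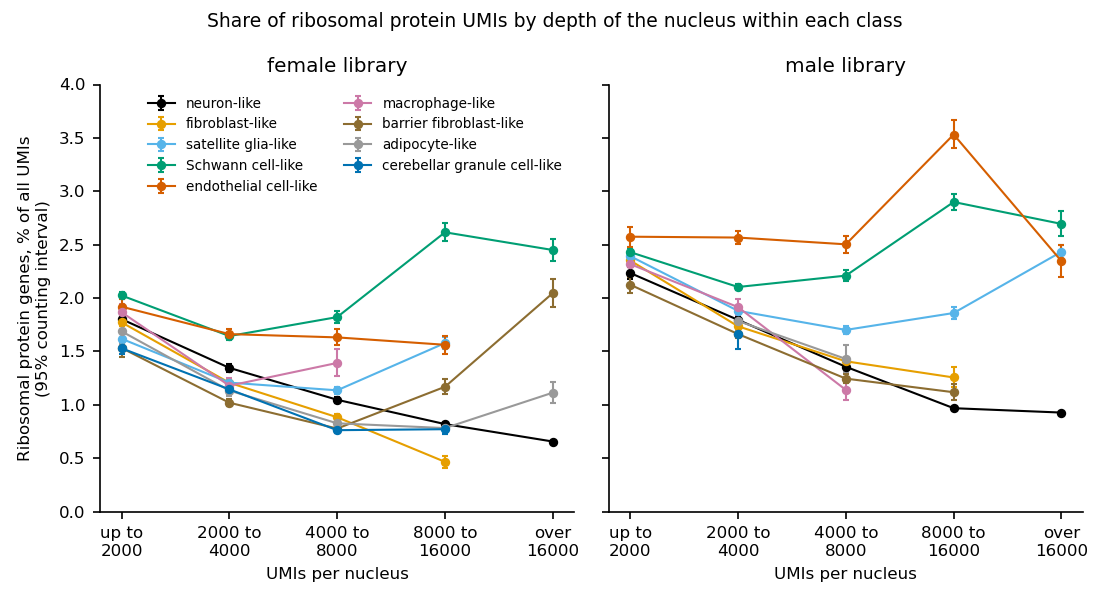
Share of UMIs in the ribosomal protein genes (percent of all UMIs, y axis from 0) by bins of UMIs per nucleus (x axis, 5 bins), with a line for each class of nuclei, the female library on the left and the male library on the right, and exact 95% counting intervals as bars (sums under 20000 UMIs not drawn). Neuron-like nuclei go from 1.80% in the first to 0.657% in the last bin (female) and from 2.24% to 0.928% (male), while Schwann cell-like nuclei go from 2.02% to 2.45% and from 2.43% to 2.69%. The last bin holds only 8 Schwann cell-like nuclei over both libraries, and the bars do not cover the spread between nuclei.

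Shallow nuclei had the larger share of ribosomal protein RNA. In 2979 nuclei of up to 2000 UMIs the members took 2.12% of UMIs and in 1286 nuclei of more than 8000 UMIs 0.949%, a log2 ratio of 1.16 (1.15 to 1.17). The ratio was 1.22 in the female library, with shares of 1.84% and 0.793%, and 1.19 in the male library, with 2.36% and 1.03%. All 77 members with at least 20 UMIs were higher in shallow nuclei, against 61.1% of all genes, and 76 were past 1.5-fold, against 28.9%. The median was 1.15 over the members and 0.20 over all genes. In each library alone 77 of 77 passed 1.5-fold, against 29.3% of all female and 29.6% of all male genes tested. The difference was smaller with classes taken into account. With neuron-like nuclei left out the log2 ratio was 0.43, and as a mean within classes it was 0.58. With each class scaled to the same number of UMIs on both sides 17 members passed 1.5-fold. That count used no UMI filter and left out classes with under 20000 UMIs on a side. The share of all genes was not computed for it, so it cannot be set against 28.9%.

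*Rps26* had 2.53 UMIs per 10000 in shallow and 0.786 in deep nuclei, the highest log2 ratio at 1.69, followed by *Rps12* (1.67), *Rps28* (1.56), *Rps27l* (1.498) and *Rps29* (1.49). *Rpl6* had 2.01 and 1.35, the lowest at 0.58, followed by *Rpl5* (0.73), *Rps2* (0.81), *Rpl8* (0.84) and *Rpl31* (0.85). *Rps12*, *Rps26*, *Rps28*, *Rps29*, *Rpl5* and *Rpl6* thus stood at the ends of both the depth and the neuron comparison. The comparisons share nuclei, since 1063 of the 1286 deep nuclei were neuron-like. RNA of other origins differed with depth as well. The erythroid list, 4 genes that include *Hbb-bs*, held 7.18 UMIs per 10000 in shallow and 1.56 in deep nuclei, and the 13 mitochondrially encoded genes 205 and 63.1. Their part in the ribosomal protein values was not tested.

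The relation with depth was not the same in each class. The log2 ratio of shallow over deep nuclei was 1.33 in fibroblast-like, 1.24 in neuron-like and 0.99 in cerebellar granule cell-like nuclei. It was 0.87 in adipocyte-like and 0.52 in barrier fibroblast-like nuclei. Split by library, fibroblast-like nuclei had 1.76 (female) and 0.90 (male), and neuron-like nuclei 1.38 and 1.25. Barrier fibroblast-like nuclei had 0.06 (female, -0.052 to 0.164) and 0.93 (male). Deep nuclei numbered 1063 in the neuron-like class. They were few in the others, with 12 fibroblast-like, 12 adipocyte-like, 14 cerebellar granule cell-like and 17 barrier fibroblast-like nuclei. The ratio was 0.18 in satellite glia-like, -0.17 in endothelial cell-like and -0.30 in Schwann cell-like nuclei. Schwann cell-like nuclei had 2.20% in 913 shallow and 2.71% in 42 deep nuclei, and the sign was the same in both libraries (-0.34 female, -0.23 male). In them 68 of 77 members were lower in shallow nuclei, against 51.9% of all genes, and 9 were past 1.5-fold lower, against 12.9%. In neuron-like nuclei 75 of 77 members were past 1.5-fold higher in shallow nuclei (24.3% of all genes). The count was 75 of 77 in fibroblast-like (28.3%) and 6 of 77 in satellite glia-like nuclei (9.9%). The fibroblast-like count rests on 12 deep nuclei.

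Markers moved with depth within the Schwann cell-like class. The 10 Schwann cell genes, which include *Prx*, held 144 UMIs per 10000 in deep and 112 in shallow nuclei, the fibroblast list 25.8 and 10.5, and the neuron list 28.9 and 41.9. In endothelial cell-like nuclei the mural cell list held 15.2 in deep and 2.25 in shallow nuclei, while the endothelial list held 75.1 and 85.5. The deep nuclei of these classes are few, 42 and 17, and whether they hold RNA of more than 1 cell was not tested.

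By role, the members followed the group. The stalk proteins *Rplp0*, *Rplp1* and *Rplp2* together held 6.79% of the UMIs of the members, and their log2 ratios were 0.29, 0.33 and 0.40 for male over female, -1.03, -0.95 and -0.84 for neuron-like over other nuclei, and 1.10, 1.26 and 1.10 for shallow over deep nuclei. *Rpl5* and *Rpl11*, which together with a ribosomal RNA can bind Mdm2 and so link ribosome assembly to p53, had 0.42 and 0.49 for male over female, -0.48 and -0.56 for neuron-like nuclei, and 0.73 and 0.86 for shallow nuclei. Their differences by class and depth were thus among the smallest of the group.

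*Rpsa*, also known as the laminin receptor precursor, had log2 ratios of 0.30, -0.74 and 1.06 in the same order of comparisons. *Rps27a*, which is made as a fusion with ubiquitin, had 0.26, -0.88 and 1.24. *Rpl41*, the shortest ribosomal protein, had 0.21, -0.99 and 1.43. *Rps19*, mutated in Diamond-Blackfan anaemia, had 0.16, -0.98 and 1.31. Each of these values lies within the range of the other members with at least 100 UMIs in its comparison.

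Single nuclei were also compared. No nucleus was without a member UMI, and the median nucleus had 1.36% of its UMIs in the members in the female library (5th to 95th percentile 0.454 to 2.71%) and 1.84% in the male library (0.605 to 3.09%). After each nucleus was thinned to 1000 UMIs, at the cost of 19 female nuclei and of none in the male library, the mean was 14.3 member UMIs per female and 18.4 per male nucleus. The variance was 3.95 and 3.87 times the mean, so that nuclei of a library differed by more than counting error. Random thinning keeps the expected share of each nucleus, so differences that go with its original depth remain in these values. The median nucleus had UMIs of 12 and 16 different members after thinning. Without thinning this number rose from 22 in female nuclei of up to 2000 UMIs to 62 in those of more than 16000, whereas thinned it fell from 16 to 5. In the male library it rose from 28 to 66 without thinning and fell from 20 to 7 with it. Across nuclei, the thinned UMIs of the small and the large subunit had a Pearson r of 0.58 in each library. This was over 3772 female and 4923 male nuclei, all classes together, so that differences between classes enter it. Within a class and library r ran from 0.26 (male macrophage-like) to 0.63 (female neuron-like). Nuclei of a library are not replicates, and r is given as a description.

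The make-up of the group was also followed by class and library. Over 18 profiles of class and library, the share of a member within the group had a median SD of 0.19 on the log2 scale, counting error included. *Rps7* (0.095), *Rpl21* (0.096) and *Rplp1* (0.12) were among the steadiest. *Rpl4* varied most (0.85) because it had 0 UMIs in male cerebellar granule cell-like nuclei, which held 916 member UMIs in all. *Rps28* (0.32) and *Rpl12* (0.31) came next. The lowest value of *Rps28* and the highest of *Rpl12* came from this same profile. The SD over members in it was 0.61, where counting error alone would give 0.46. These ranks thus rest in part on few UMIs, and the SD without this profile was not computed. *Rpl6* was the member highest relative to its mean in neuron-like nuclei of both libraries (0.23 female, 0.18 male, log2), and *Rps12* was the highest in female Schwann cell-like (0.27), fibroblast-like (0.33) and cerebellar granule cell-like nuclei (0.48).

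The genes outside the group with the most similar levels over the 18 profiles, among 10264 with at least 500 UMIs, were *Tpt1* (r 0.99), *Rps3a1* (0.96), *Eef1a1* (0.96), *Fth1* (0.93), *Myl6* (0.93), *Fau* (0.93), *Prdx1* (0.93), *Pfdn5* (0.92), *Uqcr11* (0.92) and *Tmsb4x* (0.92). The profiles share libraries and depths, and r is a description. *Rps3a1* and *Fau* are ribosomal protein genes that the symbol rule leaves out, *Tpt1* and *Eef1a1* encode a growth-related protein and elongation factor whose mRNAs carry the TOP motif, and *Fth1* encodes a ferritin chain. *Tpt1* had 4.82 UMIs per 10000 in female and 6.15 in male nuclei, 4.21 in neuron-like and 8.06 in other named nuclei, and 9.57 in shallow and 4.20 in deep nuclei. The median r with the summed members was 0.93 over members, the lowest being *Rpl4* at 0.27, and 0.04 over the other genes. High values were not particular to the members. The median was 0.85 over ribosomal protein genes that the symbol rule leaves out. It was 0.81 over short cytoplasmic mRNAs and 0.76 over other TOP mRNAs, lists described below. It was 0.63 over mitochondrially encoded genes, 0.12 over ribosome assembly factors and -0.53 over nuclear long noncoding RNAs.

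Genes of related function were set beside the members. Of all genes tested 9.18% were past 1.5-fold higher in the male library, 31% past 1.5-fold lower in neuron-like nuclei and 28.9% past 1.5-fold higher in shallow nuclei, shares against which the counts of each list are to be read. In the 19 other TOP mRNAs, which encode translation factors and partners of the ribosome, 1 was past 1.5-fold higher in the male library, 8 were past 1.5-fold lower in neuron-like nuclei and 12 were past 1.5-fold higher in shallow nuclei, and the summed log2 ratios were 0.40, -0.58 and 0.80. Of the 25 ribosome assembly factors, such as *Ncl* and *Fbl*, which act in the nucleolus, 2, 3 and 4 passed, the last pair below the share of all genes, with summed ratios of 0.22, -0.31 and 0.42. The 8 snoRNA host RNAs, which include *Gas5*, had 1, 2 and 3 past the fold and summed ratios of 0.25, -0.38 and 0.67. Mitochondrial ribosomal protein genes, which build another ribosome but come from nuclear genes, had 13, 15 and 47 of 78 past the fold, of which the count in neuron-like nuclei lay below the share of all genes, and summed ratios of 0.35, -0.42 and 0.66. The 8 ribosomal protein genes that the symbol rule leaves out had 1, 6 and 7 past the fold and summed ratios of 0.39, -0.72 and 1.05. Some of them, such as *Fau* and *Rack1*, also stand among the TOP mRNAs.

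Lists named for the place of an RNA differed more. The 13 mitochondrially encoded genes were all past 1.5-fold lower in neuron-like and all past 1.5-fold higher in shallow nuclei, with summed log2 ratios of -1.42 and 1.70. Between the libraries they went the other way from the ribosomal protein genes, with a summed ratio of -0.28 and 0 past 1.5-fold. The short cytoplasmic mRNAs, which include *Actb* and *Gapdh*, were 18 symbols in 19 rows of the gene list, so that a symbol counts more than once. Of these rows 9 were past 1.5-fold higher and 1 past 1.5-fold lower in the male library, and 7 were lower in neuron-like nuclei, near the share of all genes. In shallow nuclei 14 of 18 rows tested were higher. The summed ratio between the libraries was 0.65. Nuclear long noncoding RNAs such as *Malat1* and *Meg3* went against the members with depth, with 7 of 8 past 1.5-fold lower in shallow nuclei (20.3% of all genes) and a summed ratio of -0.83, and 6 of 8 past 1.5-fold higher in neuron-like nuclei (21.1%). Their single log2 ratios ran from -3.62 to 3.52 for neuron-like nuclei (median 2.96) and from -2.77 to 2.43 for shallow nuclei (median -2.14). Most deep nuclei were neuron-like, so these pooled values mix class and depth. The parts of class, depth and place of the RNA in this list were not tested. These lists share all nuclei with the members, and no list was tested against another.

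**Figure D5:**
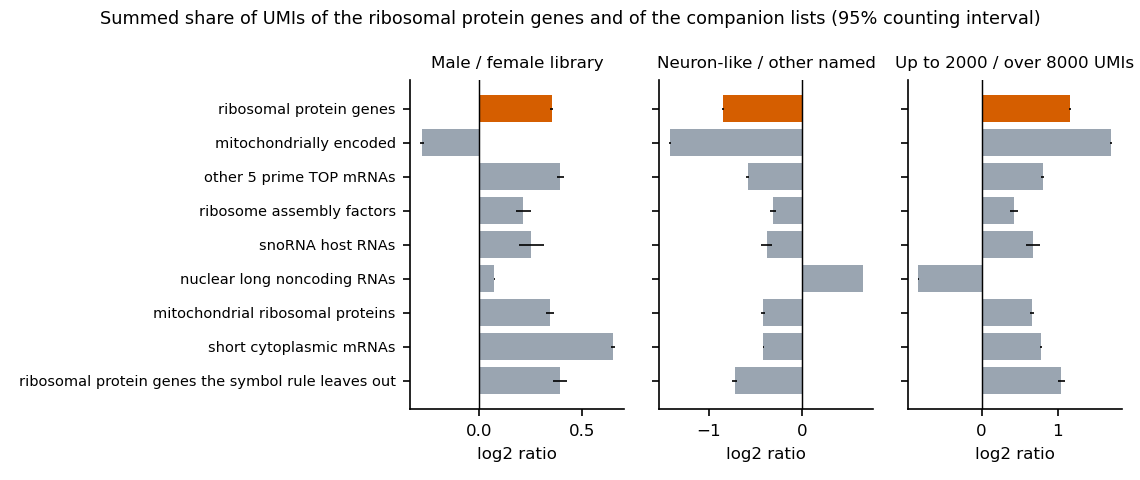
Log2 ratio of the summed share of UMIs of the ribosomal protein genes (orange bar) and of each companion list (grey bars) in the 3 comparisons (male over female library, neuron-like over other named nuclei, up to 2000 over more than 8000 UMIs), with exact 95% counting intervals as thin lines and a scale of its own in each panel. The ribosomal protein genes stand at 0.35, -0.85 and 1.16, the mitochondrially encoded genes at -0.28, -1.42 and 1.70, and the nuclear long noncoding RNAs at 0.07, 0.65 and -0.83.

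Gene length was a further property that the members share. Their genes span a median of 3.33 kb (0.828 to 31.4 kb) on 19 chromosomes, against 17.4 kb for 21630 protein-coding genes. Protein-coding genes outside the group that span 1.25 to 10.2 kb had a median log2 ratio of 0.22 for male over female, -0.36 for neuron-like over other nuclei and 0.52 for shallow over deep nuclei. Of them 19.8%, 34.5% and 45.8% were past 1.5-fold in the direction of the members. Genes that span more than 100 kb had medians of -0.24, -0.11 and -0.07. Among 77 members the Spearman correlation of span with the ratio was 0.14, 0.12 and -0.18, given as a description.

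Many members have near copies in the genome, mostly processed pseudogenes, which can share their reads. Of the 80 members 63 had a run of 90 bases within the last 300 bases of a transcript that also occurs in another annotated gene, with up to 38 such genes for *Rps2*, so that the counts of these members are uncertain to the extent that reads were split. The number of copies had a Spearman correlation of 0.01, 0.17 and -0.20 with the ratios of the 3 comparisons over 77 members.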

How the data were processed

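RNA of single nuclei was measured in 1 female and 1 male library of pooled ganglia. The deposited values are whole UMI counts, which the authors made with Cell Ranger on mm10 with an added transgene sequence and introns included. Barcodes were kept by DIEM debris score, genes and UMIs, and joining the libraries evened out their confidently mapped reads, which drops part of the deeper one. They state that possible doublets were removed, and no caller was run here. The annotation release and the handling of reads shared between genes were not given in the sources used here.

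The labels do not map nuclei to libraries. A barcode suffix was matched to a sex because the number of nuclei per suffix equals the number stated for each sex, and sex-linked genes were then checked. Every count of the summed table was used, and 0 columns were left unmapped. Shares are member UMIs over all UMIs of the nuclei summed, with Clopper-Pearson intervals. Ratios have exact conditional intervals and levels exact Poisson intervals, all for counting error only. For ratios of single genes 0.5 UMIs were added to both sums and a gene needed 20 UMIs over both sides. A call is a fold of 1.5 and carries no test. Clusters were rebuilt with python 3.11.15, numpy 2.4.6, scipy 1.17.1, scikit-learn 1.9.0 and igraph 0.11.9 (10 principal components, 243 neighbours, Louvain), without the members, other ribosomal protein genes, mitochondrially encoded genes, sex-linked genes and those the study listed as different between the sexes. A cluster took the name of the leading marker list if at least 3 markers reached 1.5-fold and no other list had more of its top 10 genes. A shallow cluster also needed a marker among these genes. A cluster stayed unnamed if several further lists had a mean log2 fold above 0.8, as was so for the unnamed nuclei led by pituitary genes. Names may differ from those of the study. The ratio code was tested on simulated data.

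Named members were the 5 with the most UMIs in each subunit (of which 1 is not reported here), symbols ending in l, members under 20 UMIs, the 5 highest and 5 lowest ratios per comparison among members with 100 UMIs on both sides, and members chosen for their roles. Likeness was the Pearson correlation of log2 levels per 10000 with 0.05 added, over class-by-library sums of at least 20000 UMIs. *Rpl4*, *Rpl12*, *Rps7*, *Rpl21*, the X-linked members and the printed sequences were chosen after their values were seen. The members and lists were chosen with earlier results of these data known.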

Additional observations from a re-analysis of the deposited data

Results flagged for a closer look

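The difference in ribosomal protein share between shallow nuclei (up to 2000 UMIs) and deep nuclei (more than 8000 UMIs) had opposite signs in different classes. In Schwann cell-like nuclei the log2 ratio was -0.34 in the female library (2.02% in 536 shallow and 2.56% in 18 deep nuclei) and -0.23 in the male library (2.43% in 377 and 2.85% in 24), whereas in neuron-like, fibroblast-like, barrier fibroblast-like and satellite glia-like nuclei it was above 0 in both libraries. In the female library the values of barrier fibroblast-like (0.056, -0.052 to 0.164) and satellite glia-like nuclei (0.037, -0.053 to 0.126) had intervals that include 0. In neuron-like nuclei it was 1.38 and 1.25. In endothelial cell-like nuclei it was 0.30 in the female library (1.92% in 99 shallow and 1.56% in 8 deep nuclei) and -0.28 in the male library (2.57% in 69 and 3.13% in 9). With 1 library per sex these differences between classes and between libraries were not tested.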

How the results depend on the processing

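No paired analysis was possible because each sex had 1 library, and for the same reason no library could be left out of the comparison of the sexes. The log2 ratio of male over female (0.35 as reported) was 0.53 in nuclei of 2000 to 4000 UMIs alone, 0.55 as a mean within classes, 0.48 with each depth bin and class counting the same and 0.41 with median-of-ratios size factors. The ratio of neuron-like over other named nuclei (-0.85) was -0.88 with the members and mitochondrially encoded genes left out of the denominator, -0.53 as a mean of the shares of single nuclei, -0.96 in the male library alone and -0.89 with genes scaled within each library before clustering. It was 0.034, the only reversal, in nuclei of 2000 to 4000 UMIs. The ratio of shallow over deep nuclei (1.16) was 1.196 with the other denominator and 1.10 as a mean of single shares. It was also 1.10 after thinning to 1000 UMIs. Random thinning keeps the expected share of a nucleus, so this value repeats the mean of single shares and cannot show an effect of depth. The ratio was 0.58 within classes, 1.22 over female and 1.19 over male nuclei alone, and 0.31 for nuclei of 2000 to 4000 over 4000 to 8000 UMIs. The log2 ratio of the highest over the lowest named class (1.19) was 1.22, 0.77 and 0.84 with the other denominator, as a mean of single shares and in nuclei of 2000 to 4000 UMIs, and in the last pair the cerebellar granule cell-like class was lowest. At 2-fold in place of 1.5-fold 0 members passed in the male library (3 as reported) and 14 in neuron-like nuclei (74), and 1 had its interval wholly past 1.5-fold in the male library. The share of all genes at 2-fold or under the interval rule was not computed. These counts thus do not show whether members differ from other genes. In sums with each class scaled alike and no UMI filter, 17 members passed in shallow nuclei (76). The share of all genes was not computed for this count either.

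Alternatives chosen after seeing the data left out cerebellar granule cell-like and unnamed nuclei (male over female 0.32), cerebellar granule cell-like nuclei (neuron-like over other -0.89), neuron-like nuclei (shallow over deep 0.43) and nuclei whose barcode sequence occurs in both libraries, and counted members in nuclei of 2000 to 4000 UMIs (24 higher in the male library, 0 lower in neuron-like nuclei) and in single libraries. The cause of these changes was not tested. Median-of-ratios scaling shifted all genes by 0.05 (log2) and kept 77 members higher in the male library.

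Depth limits *Rpl3l*, *Rpl39l* and *Rpl10l* and the deep nuclei of small classes, and the spread between mice was not measured.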
